A study of Mus musculus with 10 samples.

Results

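Padi1, Padi2, Padi3 and Padi4, 4 of the peptidylarginine deiminase genes, and Epha2, their neighbour on chromosome 4, were examined in Hi-C loop lists of mouse bone marrow-derived macrophages (BMDMs). They were 5 of 21755 protein-coding genes annotated on the autosomes and X. A loop, here a pair of 10 kb bins listed as interacting, was taken as near a gene when either of its anchor bins overlapped 100 kb on either side of the gene's transcription start site (TSS). The 5 genes were chosen by their loop numbers in these same lists, so loop numbers below are a description and carry no test. In CTR cells 124 of 53424 loops lay near a member, in IL4 cells 153 of 58260, in preIL4 cells 140 of 67728, in IFNG cells 92 of 55012 and in preIL4IFNG cells 108 of 67000.

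Peptidylarginine deiminases are calcium-dependent enzymes that convert arginine residues of proteins to citrulline. PADI4 enters the nucleus and citrullinates histones, which is best known from neutrophil extracellular traps, and PADI2 is the member with the broadest tissue distribution, macrophages included. PADI1 and PADI3 are known mainly from skin and hair follicles, and PADI6 from the oocyte. EPHA2 is a receptor tyrosine kinase that binds membrane-anchored ephrin-A ligands on neighbouring cells. Chromatin loops bring distant stretches of a chromosome together, and many are held by cohesin that stops at CTCF bound in facing orientation.

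All groups were BMDMs of wild-type female C57BL/6 mice, 2 to 3 months old, grown with M-CSF at 20 ng/ml and treated on day 6 of differentiation. CTR cells were untreated, IL4 cells received IL-4 at 20 ng/ml for 24 h, and preIL4 cells received the same IL-4, were washed and rested for 24 h. IFNG cells received IFNG at 20 ng/ml for 3 h, and preIL4IFNG cells received it after the IL-4 and the rest. Where 5 values stand in a row, they are in the order CTR, IL4, preIL4, IFNG and preIL4IFNG. No untreated group with the added rest was used here, so priming and time in culture cannot be told apart. Each group had 2 Hi-C samples but 1 loop list, which gives for every listed pair a whole-number contact count and nothing for pairs that were not called. There was therefore no replicate check of any difference below, and a pair absent from a list was not called, which does not mean 0 contacts. Intervals are 95% intervals for counting error only. Hi-C measures no RNA, so the cell type could not be checked against marker expression and nothing is said here about the members' expression.

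The Padi genes form 1 cluster in GRCm38 (mm10). Padi4 (ENSMUSG00000025330.6) lies at chr4:140745865-140774236, Padi3 (ENSMUSG00000025328.9) at chr4:140785365-140810648 and Padi1 (ENSMUSG00000025329.3) at chr4:140812983-140845778, all on the minus strand. Padi2 (ENSMUSG00000028927.6) lies at chr4:140906344-140952586 on the plus strand, and Epha2 (ENSMUSG00000006445.3) at chr4:141301240-141329384, also on the plus strand. Padi6, which was not chosen, adjoins Padi4 at chr4:140727355-140742643. Successive Padi TSSs were 36.4 kb (Padi4 to Padi3), 35.1 kb (Padi3 to Padi1) and 60.6 kb (Padi1 to Padi2) apart, and the Epha2 TSS was 394.9 kb from that of Padi2. The Padi windows overlap, so these 4 genes share most of their loops: in CTR cells 41 of the 42 loops near Padi1 were also near Padi2. In no list did a loop near a Padi gene also lie near Epha2.

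Sequences matching the CTCF core, CCANNAGGNGGC on either strand with 0 mismatches allowed, are shown because pairs of anchors that carry them head to head include several of the loops called in every list. Of the 96 anchor bins of the loops near the members, 25 (26.0%) held a match, against 14.3% of all 70658 anchor bins of the 5 lists and 8.47% of all 10 kb bins of the autosomes and X. The members' anchor bins had a median GC content of 51.9%. A match is a stretch of letters, and binding at these places was not measured. The matches below are read 5′ to 3′ on the strand given, from the GRCm38 genome, with the core in capitals.
Arhgef10l intron, plus strand, chr4:140592424-140592435: tgcaagcgtCCAGGAGGGGGCgcacccggc
Between Arhgef10l and Rcc2, minus strand, chr4:140674550-140674561: ccccggtgaCCAGCAGGGGGCgccagatac
Between Arhgef10l and Rcc2, minus strand, chr4:140679256-140679267: tcactgccgCCAGCAGGGGGCactggagcc
Rcc2 intron, minus strand, chr4:140714030-140714041: gttcagacaCCAGTAGGTGGCgcccacacc
Padi4 intron, plus strand, chr4:140763331-140763342: agatcatcaCCACAAGGGGGCgccacagga
Between Padi4 and Padi3, plus strand, chr4:140784735-140784746: ccacagaagCCAGAAGGGGGCaccagatcc
Padi1 coding exon, plus strand, chr4:140818940-140818951: tggggctggCCAGGAGGAGGCggaagccct
Padi1 intron, plus strand, chr4:140822172-140822183: ccaaagacaCCACCAGGGGGCagacttgtt
Between Padi1 and Padi2, minus strand, chr4:140902616-140902627: aggcaatgaCCACAAGGTGGCaccagctcc
Arhgef19 intron, plus strand, chr4:141252830-141252841: cccaaaagtCCAAAAGGGGGCaccagaatc
Between Arhgef19 and Epha2, plus strand, chr4:141269326-141269337: agaggcaagCCACTAGGGGGCcagttctct
Between Arhgef19 and Epha2, minus strand, chr4:141271418-141271429: gtgcagcagCCACCAGGAGGCgagtgggtg
Between Arhgef19 and Epha2, plus strand, chr4:141273417-141273428: cttaggcagCCACCAGGGGGCagcagaggc
Between Epha2 and Fam131c, minus strand, chr4:141363382-141363393: aacaagtgaCCACCAGGGGGCagcctgaga

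The minus-strand match before Padi2 stands in the bin chr4:140900001-140910000, which also holds the Padi2 TSS and was the Padi cluster's most used anchor. The RefSeq promoter of Padi2 in that bin, 300 bases at chr4:140906110-140906409 (GRCm38.p6, plus strand), has 22 CpG dinucleotides, against a median of 7 over 32851 promoters. Its sequence is given since this bin's loops are followed below.
Padi2 promoter: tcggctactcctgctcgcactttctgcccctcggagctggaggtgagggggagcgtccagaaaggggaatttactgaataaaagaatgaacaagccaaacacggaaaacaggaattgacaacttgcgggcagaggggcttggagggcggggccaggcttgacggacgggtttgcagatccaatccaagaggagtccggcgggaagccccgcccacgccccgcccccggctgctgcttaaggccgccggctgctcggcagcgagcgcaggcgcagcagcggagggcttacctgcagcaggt
The promoters of Padi1, Padi3 and Padi4 have 3, 4 and 8 CpG dinucleotides and that of Epha2 has 10. The STAT6-type motif TTCNNNNGAA and the GAS motif TTCNNNGAA, to which STAT proteins activated by IL-4 and IFNG are known to bind, were searched in the 5 members' promoters, all of which were in the RefSeq table. Neither was found there. Over all promoters 6.95% held the first and 8.30% the second.

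Near the Padi genes, the IFNG list held the fewest loops and the preIL4 list the most, before any scaling for list length. Near Padi4, the histone-citrullinating enzyme, there were 48 loops in CTR, 56 in IL4, 66 in preIL4, 33 in IFNG and 49 in preIL4IFNG cells. Near Padi3 there were 47, 51, 61, 25 and 45 in the same order of groups, and near Padi1 there were 42, 46, 56, 18 and 37. Near Padi2, the widely expressed enzyme, there were 51, 51, 58, 23 and 45. Counted once each, the loops near the 4 Padi genes numbered 66 in CTR, 68 in IL4, 79 in preIL4, 40 in IFNG and 61 in preIL4IFNG cells. For each of the 4 genes IFNG gave the lowest number among the 5 lists, and preIL4IFNG lay below preIL4. Epha2 differed from them in order. It had 58 loops in CTR, 85 in IL4, 61 in preIL4, 52 in IFNG and 47 in preIL4IFNG cells, so its highest number was with IL-4 present and its lowest in preIL4IFNG. Padi6, just outside the chosen set, had 48, 62, 64, 32 and 53 loops.

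**Figure D1:**
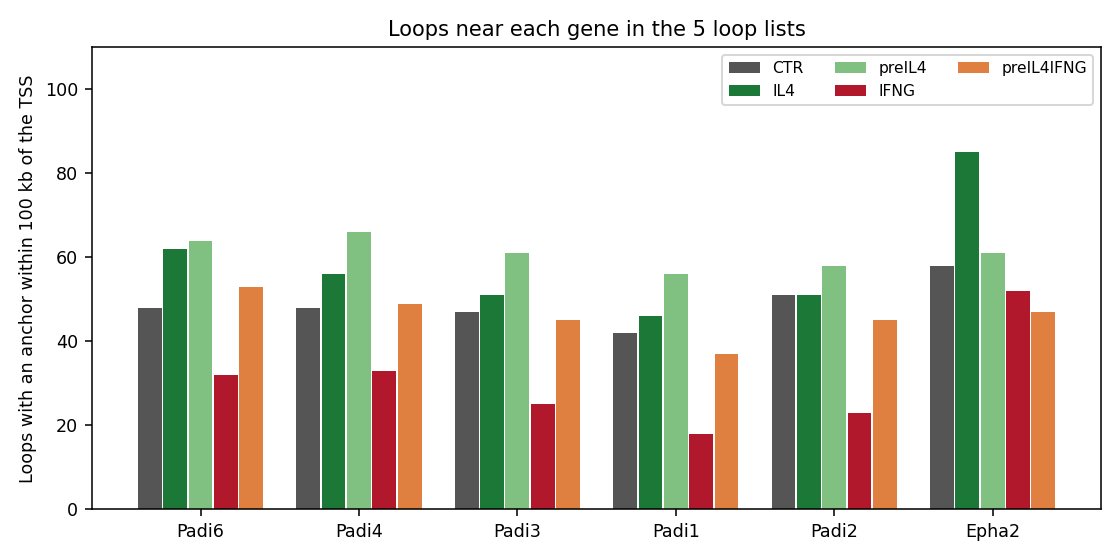
Bars give the number of listed loops (vertical axis) with an anchor within 100 kb of the TSS of Padi6 and of each of the 5 members, 1 bar per loop list. The IFNG bar is the lowest for every Padi gene, from 18 loops near Padi1 to 33 near Padi4, and the IL4 bar is the highest for Epha2 (85 loops).

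Summed contacts of the listed loops moved with their number. These sums cover called pairs only, so they depend on which pairs were called, and their intervals do not cover that. Separate intervals are therefore no sign that contacts differed, and contacts at pairs called in every list are given below. The loops near the Padi genes carried 3960 contacts in CTR (3838 to 4085), 3956 in IL4 (3834 to 4081), 4238 in preIL4 (4111 to 4368), 2250 in IFNG (2158 to 2345) and 3336 in preIL4IFNG cells (3224 to 3451). The median loop had 51, 49, 45, 48 and 44 contacts in that order, so the IFNG list, with the fewest loops, stood inside the range of the others per loop. The loops near Epha2 carried 3149 contacts in CTR, 5710 in IL4, 3463 in preIL4, 3030 in IFNG and 2633 in preIL4IFNG cells. Here the median loop had 44, 51, 47, 47.5 and 51 contacts, so IL4 and preIL4IFNG had the same median. Their means were 67.2 and 56.0 contacts. Relative to the list's median at the same span, their median loops stood at 1.14 and 1.22. The IL4 list had 10 loops between adjacent bins and 20 spanning 20 to 50 kb near Epha2, against 2 and 8 in CTR. Over the whole lists, loops between adjacent bins made up 5.66% in IL4 and 4.89% in CTR. Those spanning 20 to 50 kb made up 11.3% and 11.1%.

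The lists differ in length, so each number was divided by the length of its list before ratios were taken, with 1 loop added to each number. The log2 ratio of IFNG to CTR was -0.57 for Padi4, -0.93 for Padi3, -1.22 for Padi1, -1.16 for Padi2 and -0.20 for Epha2. Of the members, 2 were past -1, Padi1 and Padi2, and 0 were past 1. Neither stayed past -1 with windows of 200 kb, with only loops at or above the median contacts of their span, or with touching bin pairs merged, where the ratios were -0.82, -0.86 and -0.28 for Padi1 and -0.96, -0.87 and -0.46 for Padi2, and Padi1 was at -0.57 with windows of 25 kb. Of the 11300 genes with at least 10 loops in 1 of the lists, 2.07% were past -1 and 3.18% past 1 in this comparison, and the median was -0.04. Because the genes were selected on these numbers, and because neighbouring genes share loops, nothing is read from the count of 2. The log2 ratio of preIL4IFNG to preIL4 was -0.41 for Padi4, -0.42 for Padi3, -0.57 for Padi1, -0.34 for Padi2 and -0.35 for Epha2, with 0 members past the fold and 2.16% of all genes past 1 and 1.23% past -1. With windows of 25 kb Padi4 was past it, at -1.10. The primed ratio exceeded the unprimed ratio by 0.16 for Padi4, 0.51 for Padi3, 0.65 for Padi1 and 0.81 for Padi2 on the log2 scale and fell below it for Epha2 (-0.16). The median difference over all genes was 0.04. The order of primed and unprimed ratios depended on the counting. With touching bin pairs merged the primed ratio was the lower one for Padi4 (-0.25 against -0.04), Padi3 (-0.33 against -0.14) and Padi1 (-0.44 against -0.28), and near equal for the cluster (-0.31 against -0.33). With windows of 25 kb it was the lower one for Padi4 (-1.10 against -0.94). Without replicates none of these differences could be tested.

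**Figure D2:**
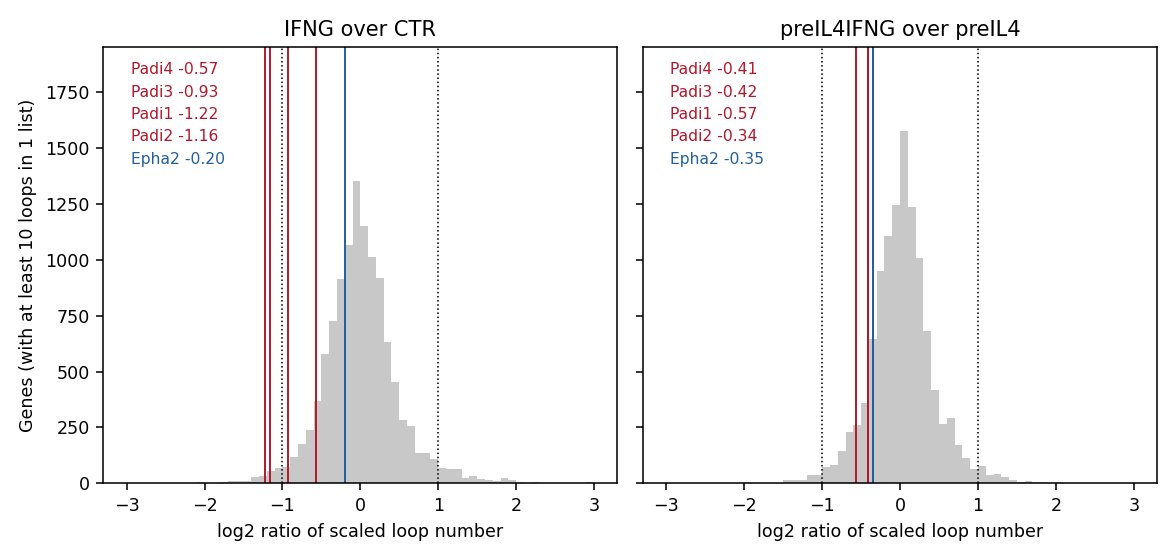
Grey histograms give the log2 ratio of list-length-scaled loop number (horizontal axis; values beyond 3 drawn at 3) for 11300 genes, with red lines for the 4 Padi genes, a blue line for Epha2 and dotted lines at -1 and 1. The Padi lines lie between -1.22 and -0.57 on the left and between -0.57 and -0.34 on the right.

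In IL4 cells the scaled loop number near the Padi genes was close to that of CTR. The log2 ratio of IL4 to CTR was 0.09 for Padi4, -0.01 for Padi3, 0.00 for Padi1 and -0.13 for Padi2, and for Epha2 it was 0.42. No member was past the fold, against 2.62% of genes past 1 and 2.08% past -1. After the wash and rest the ratio to CTR was 0.11 for Padi4, 0.03 for Padi3, 0.06 for Padi1, -0.16 for Padi2 and -0.27 for Epha2, with 0 members past the fold against 2.37% of genes past 1 and 0.673% past -1. Epha2 thus stood 0.69 lower in preIL4 than in IL4 cells on the log2 scale. In preIL4IFNG cells the ratios to CTR were -0.30, -0.39, -0.51 and -0.50 for Padi4, Padi3, Padi1 and Padi2, and -0.62 for Epha2. Again 0 members were past the fold, against 3.1% of genes past 1 and 1.02% past -1. These comparisons share the CTR list.

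Most of the lower number in IFNG lay inside the cluster. The division into stretches was made after the values were seen. Before and past, and preceding and next bin, refer here to lower and higher coordinates, whatever the strand. Loops with both anchors between Padi6 and the end of Padi2 numbered 41 in CTR, 46 in IL4, 52 in preIL4, 16 in IFNG and 35 in preIL4IFNG cells. Loops with both anchors before Padi6, toward Rcc2 and Arhgef10l, numbered 13, 14, 13, 16 and 14, and here IFNG had the most. Loops with both anchors past Padi2, at Sdhb, Atp13a2, Mfap2 and Crocc, numbered 10, 8, 9, 6 and 8. The decrease in IFNG against CTR was smaller for Padi4 and Padi3 than for Padi1 and Padi2, and the windows of Padi4 and Padi3 reach the loops before Padi6.

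**Figure D3:**
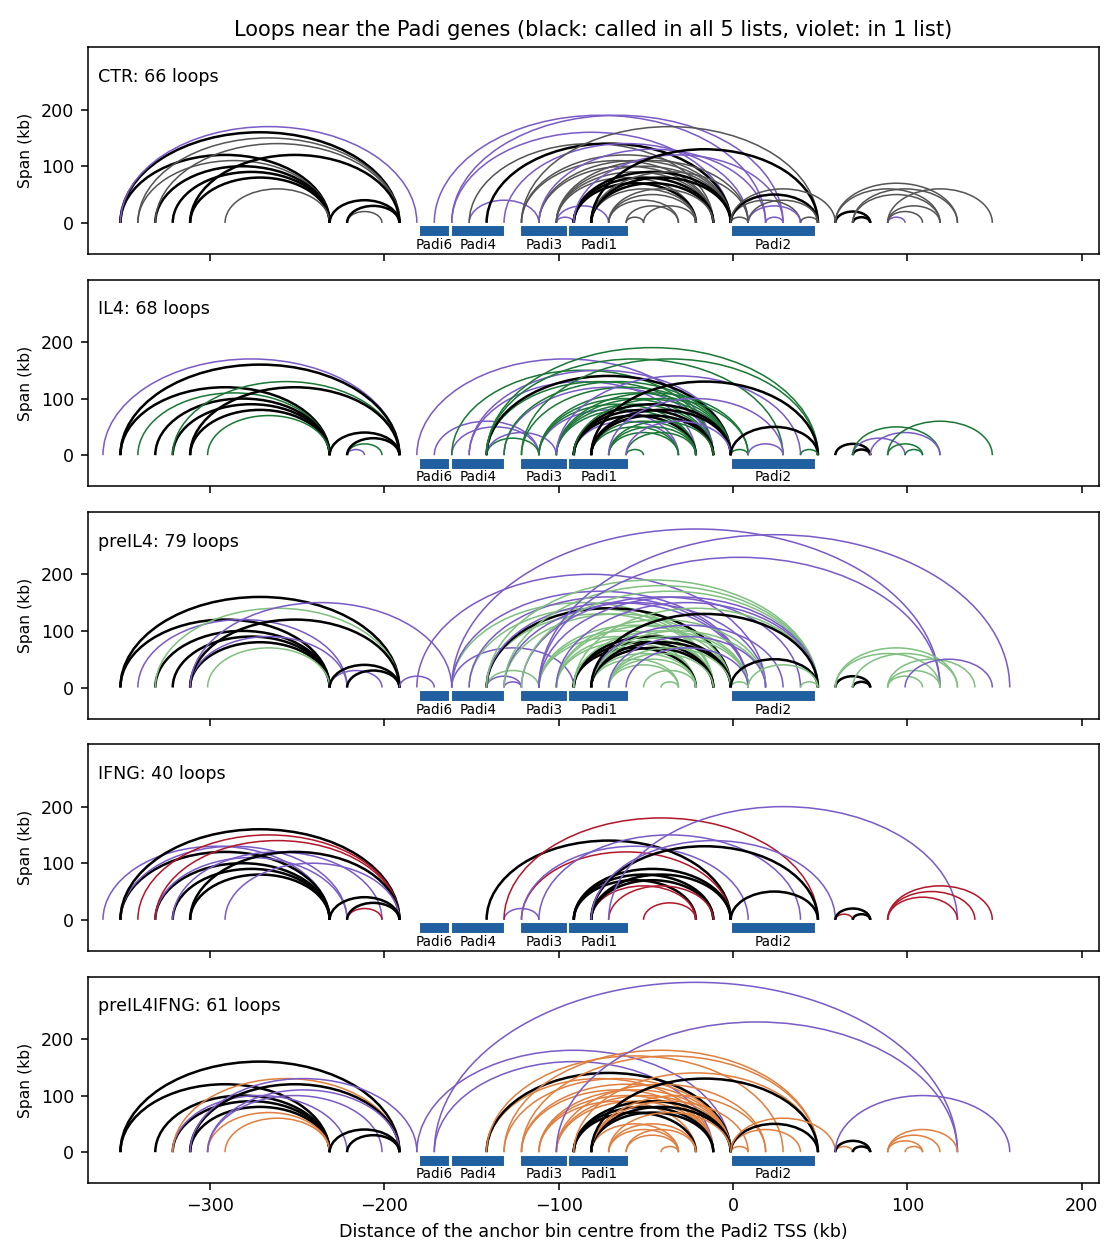
Each arc joins the anchor bins of 1 loop near the Padi genes, placed by distance from the Padi2 TSS (horizontal axis, kb) with height equal to its span (kb), in 1 panel per list; blue boxes are genes, black arcs were called in all 5 lists, so they are in every panel by definition, and violet arcs in 1. Loops with both anchors between Padi6 and the end of Padi2 number 16 in the IFNG panel and 35 to 52 in the others.

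The same loops counted by gene body gave a like contrast. These numbers are not scaled, and the preIL4 list is the longest (67728 loops, against 53424 in CTR). Scaled to the CTR list length, the cluster as a whole had 66, 62.4, 62.3, 38.8 and 48.6 loops. On that scale preIL4 was not the highest. Anchor bins overlapping Padi2 were used by 24 loops in CTR, 21 in IL4, 31 in preIL4, 9 in IFNG and 21 in preIL4IFNG cells. For Padi1 the numbers were 16, 17, 20, 10 and 15, for Padi3 17, 20, 22, 7 and 14, for Padi4 6, 12, 17, 3 and 5, and for Padi6 4, 4, 7, 0 and 4. For Padi4 the number in preIL4 was the highest and that in IFNG the lowest. Loops joining the Padi4 body to the Padi2 body numbered 4, 5, 8, 2 and 4, those joining Padi3 to Padi2 8, 8, 10, 4 and 7, and those joining Padi1 to Padi2 5, 6, 11, 3 and 7. Of these 3 pairs of genes, IFNG had the lowest and preIL4 the highest number in each. Other pairs had fewer loops and another order, with 1, 3, 4, 1 and 0 between Padi3 and Padi4, 2, 0, 0, 0 and 0 between Padi1 and Padi3, and 0, 0, 1, 0 and 0 between Padi1 and Padi4.

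Padi2 was the partner most of these loops shared. Its TSS bin anchored 11 loops in CTR, 11 in IL4, 8 in preIL4, 5 in IFNG and 13 in preIL4IFNG cells. The loop from that bin into Padi1, chr4:140820001-140830000 to chr4:140900001-140910000, had 64, 89, 66, 69 and 63 contacts in the 5 lists. The loop from the bin shared by Padi3 and Padi1, chr4:140810001-140820000, to the Padi2 TSS bin had 51, 45, 50, 61 and 38, and that from the Padi4 body, chr4:140760001-140770000, had 53, 34, 43, 36 and 46. Each of these 3 left anchors carries a plus-strand CTCF core and the Padi2 bin the minus-strand one printed above. The Padi3-side bin chr4:140780001-140790000, with another plus-strand match, was joined to the Padi2 bin with 45, 47, 48 and 41 contacts in all lists but preIL4. IFNG values lay inside the range of the other lists for 2 of these 4 loops, Padi1 to Padi2 and Padi4 to Padi2, and were the highest for the other two.

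Besides these 4, the Padi2 TSS bin had 1 loop in the IFNG list, to the end of the gene. The pair formed with the next bin, chr4:140910001-140920000 inside Padi2, had 121 contacts in CTR, 121 in IL4, 111 in preIL4 and 116 in preIL4IFNG cells and was not called in IFNG. The pair with chr4:140790001-140800000 in Padi3 had 45, 47, 45 and 49 and was also not called in IFNG. The Padi3 bin chr4:140800001-140810000 anchored 6 loops in CTR, 6 in IL4, 5 in preIL4, 0 in IFNG and 4 in preIL4IFNG cells. The Padi1 TSS bin, chr4:140840001-140850000, anchored 2, 3, 1, 0 and 2, and its strongest loop, to the next bin, had 167 contacts in CTR and 163 in IL4 and was not called in the other lists. At the Padi4 TSS bin, chr4:140770001-140780000, 1, 2, 4, 2 and 2 loops were listed and no pair was shared by all lists. The highest there was 177 contacts with the adjacent bin, called in preIL4 only. At the Padi3 TSS bin, chr4:140810001-140820000, 5, 5, 6, 3 and 4 loops were listed, and the highest value, 124 contacts with the preceding bin, was in CTR only.

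Over the cluster, the lists held 147 distinct bin pairs, of which 72 were in 1 list (49.0%), 11 in exactly 4 (7.48%) and 18 in all 5 (12.2%). Over the genome these shares were 55.5%, 7.32% and 9.18% of 153264 distinct pairs. Of the 11 in 4 lists, 8 lacked IFNG alone (72.7%), while over the genome 2801 of the 11212 pairs called in 4 lists lacked IFNG alone. Because the genes were chosen on loop numbers of these lists, nothing is read from that contrast. These 8 pairs had 28 to 121 contacts in the lists that held them. For 7 of the 8 an IFNG loop lay with both anchors within 25 kb. Of the 18 pairs in all lists, 5 joined a plus-strand CTCF match on the left to a minus-strand match on the right, as did 3 of the 72 pairs in 1 list. Those 5 share anchors: each has either the Padi2 TSS bin or chr4:140590001-140600000 at an end. The share of such pairs over the genome was not computed, so nothing is read from these counts. All 18 are described without a test, since the genes were chosen from these lists.

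At pairs called everywhere, contacts differed little. Over the 18 pairs near the Padi genes they summed to 1259 in CTR, 1164 in IL4, 1170 in preIL4, 1156 in IFNG and 1153 in preIL4IFNG cells. The ratio to CTR was 0.925 (0.853 to 1.00) in IL4, 0.929 (0.857 to 1.01) in preIL4, 0.918 (0.847 to 0.995) in IFNG and 0.916 (0.845 to 0.993) in preIL4IFNG cells. The 4 ratios lie close together. These pairs were chosen by being called in every list, so the intervals describe counting error and are no test. Over all 14063 pairs called in every list the ratio lay between 0.998 and 1.04. The 26 pairs called in both IFNG and CTR summed to 1602 contacts in IFNG and 1686 in CTR, and the interval of their ratio ran from 0.887 to 1.02. Near Epha2 the 23 pairs called in all lists summed to 1460, 1453, 1457, 1438 and 1435 contacts, with ratios to CTR from 0.983 to 0.998. Among loops spanning 60 to 100 kb, the 5th percentile of contacts was alike across lists, at 31, 31, 30, 31 and 30. The lowest single values at that span were 16, 13, 17, 18 and 16.

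**Figure D4:**
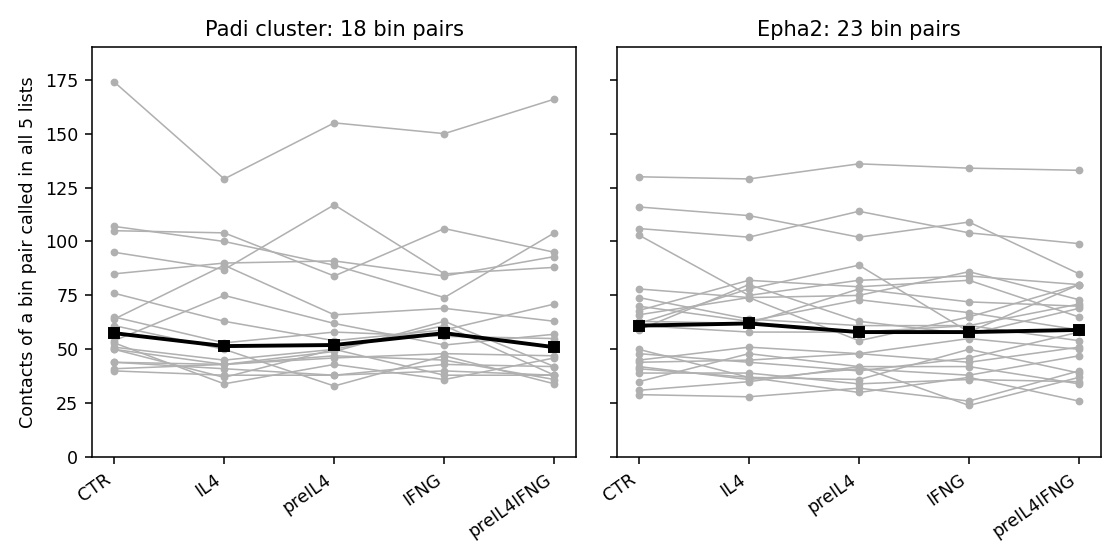
Grey lines follow the contact count (vertical axis) of each bin pair called in all 5 lists, 18 near the Padi genes and 23 near Epha2, and black squares mark the median of each list. Medians run from 51.0 to 57.5 contacts on the left and from 58.0 to 62.0 on the right, with IFNG at the top on the left (57.5, as in CTR) and at the bottom on the right (58.0, as in preIL4).

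A looser comparison of places gave a smaller difference than the number of pairs. Of the 66 CTR loops near the Padi genes, 26 had the same bins in the IFNG list (39.4%, 27.6% to 52.2%; all CTR loops, 46.9%), and 58 had an IFNG loop with both anchors within 25 kb (87.9%, 77.5% to 94.6%; all CTR loops, 88.0%). Of the 40 IFNG loops, 39 lay within 25 kb of an CTR loop. The same CTR loops were matched within 25 kb for 64 of 66 in IL4, 64 in preIL4 and 61 in preIL4IFNG cells. Where loops stand as densely as they do here, such a match need not be the same loop. When touching bin pairs were joined into 1 patch, the IFNG list still had the fewest near the Padi genes, with 17 against 21 in CTR, 23 in IL4, 24 in preIL4 and 19 in preIL4IFNG cells, and the log2 ratio of IFNG to CTR was -0.33 in place of -0.75.

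Partner bins outside the 100 kb windows lay on both sides of the cluster. From Padi4 they were 13 in CTR, 14 in IL4, 16 in preIL4, 15 in IFNG and 14 in preIL4IFNG cells. They reached Arhgef10l, up to 229 kb from the Padi4 TSS toward lower coordinates, and Padi2. Crocc or Necap2 was added in the last 3 lists, and Sdhb in IFNG. From Padi3 they were 11, 9, 11, 11 and 12 and from Padi1 3, 3, 5, 3 and 5. From Padi2 they were 11, 10, 12, 7 and 10, and they included bins of Padi6 in every list but IFNG. From Epha2 they were 16, 21, 20, 18 and 18, and reached Fbxo42 on one side and Fblim1, up to 304 kb away, on the other in every list.

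Around Epha2, IL4 cells had additional short loops at the gene. Loops with an anchor in a bin of the Epha2 body numbered 5 in CTR, 11 in IL4, 4 in preIL4, 3 in IFNG and 4 in preIL4IFNG cells. Loops with both anchors before the gene numbered 4, 14, 8, 6 and 6, loops spanning it 24, 27, 25, 17 and 19, and loops with both anchors past it 25, 33, 24, 26 and 18. The Epha2 TSS bin, chr4:141300001-141310000, anchored 2, 5, 1, 1 and 3 loops. The pair it formed with the preceding bin had 218 contacts in IL4 and 187 in preIL4IFNG cells and was not called in the other 3 lists. Its loop to chr4:141360001-141370000, the bin of the Fam131c TSS, had 67 contacts in CTR, 70 in IL4, 63 in preIL4 and 82 in IFNG and was not called in preIL4IFNG cells. The bin before the gene, chr4:141290001-141300000, anchored 4, 9, 5, 1 and 2 loops.

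Of the 114 distinct pairs near Epha2, 23 were in all lists (20.2%), 42 in 1 list (36.8%) and 21 in IL4 alone. Over the genome, 9.18% of the 153264 distinct pairs were in all lists, 55.5% in 1 list and 16282 in IL4 alone. Of those 21, 14 spanned at most 50 kb, 5 had an anchor in Epha2 and 12 had an CTR loop within 1 bin at both ends. The IL4 loops near Epha2 as a whole were matched within 25 kb in CTR for 78 of 85 (91.8%, 83.8% to 96.6%; all IL4 loops, 86.4%). Joined into patches they numbered 9, against 14 in CTR, and the log2 ratio went from 0.42 to -0.71. Pairs added between others can join patches and so lower their number. The patch count therefore cannot decide whether the higher number of pairs in IL4 held. Of 16 pairs in exactly 4 lists, 9 lacked preIL4IFNG alone (56.3%; 14.4% over the genome), and all 9 had a loop of that list within 10 kb at both ends. Nothing is read from that share, since Epha2 was chosen on loop numbers of these lists.

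**Figure D5:**
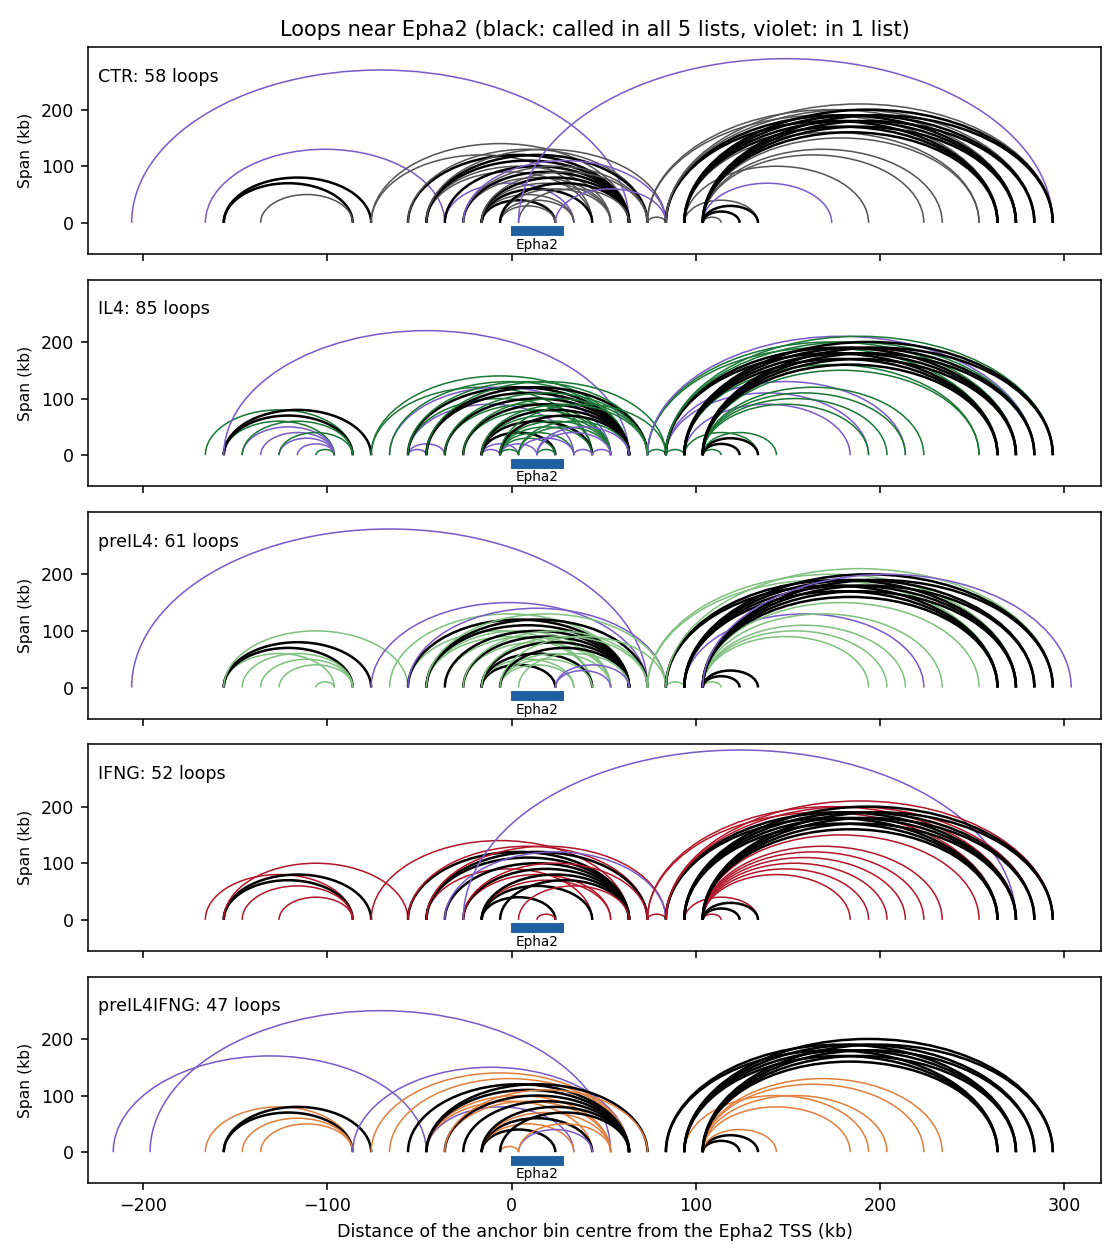
Arcs join the anchor bins of the loops near Epha2 by distance from its TSS (horizontal axis, kb), with height equal to span (kb), 1 panel per list; black arcs were called in all 5 lists and violet arcs in 1. The IL4 panel holds 85 loops with short violet arcs at the gene, and the preIL4IFNG panel holds 47.

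The steady anchors of this region lay outside Epha2. The bin of the Fam131c TSS, with the minus-strand CTCF match, anchored 9, 11, 9, 8 and 9 loops. Its loops to the 3 bins before Epha2 that carry a plus-strand match were in every list: chr4:141270001-141280000 with 106, 102, 114, 104 and 99 contacts, chr4:141260001-141270000 with 74, 64, 61, 61 and 71, and chr4:141250001-141260000 with 62, 78, 89, 58 and 80. The first of these bins also holds a minus-strand match. These loops span the whole gene. Among pairs called in at least 4 lists, the widest range of contacts near Padi2 was between Sdhb and Atp13a2, chr4:140970001-140980000 to chr4:140980001-140990000, with 174, 129, 155, 150 and 166 contacts. Near Padi4 and Padi3 it was between chr4:140670001-140680000 and the Rcc2 bin chr4:140710001-140720000, with 107, 100, 89, 74 and 104.

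Of the 14 other protein-coding genes with a TSS within 100 kb of a member or between Padi4 and Epha2, 3 were past -1 in IFNG against CTR and 0 past 1, against 2.07% and 3.18% of all genes. They were Sdhb (-1.13), a subunit of succinate dehydrogenase, Atp13a2 (-1.07), a lysosomal transporter, and Mfap2 (-1.18), a microfibril protein. The windows of these genes overlap that of Padi2, as do those of Crocc (-0.44), Necap2 (-0.38) and Spata21 (-0.46). The 14 had a median of -0.41 in that comparison, where all genes had -0.04, and in the other 3 comparisons with CTR and in the primed one 0 were past the fold either way.

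Genes linked to the members by function were counted in the same way. A list of 12 genes of neutrophil granules, the NADPH oxidase and gasdermin D, which act beside PADI4 in extracellular traps, had 9 genes with enough loops. Of these 0 were past the fold in either direction in any of the 7 comparisons made, and the median IFNG to CTR ratio was 0.03, where all genes had -0.04. With between 0.673% and 3.18% of all genes past either fold in the comparisons above, a count of 0 among 9 is near the background. Of 21 other Eph receptors and ephrins, 11 had enough loops. Their median was 0.62 (-0.38 to 1.96) for IFNG against CTR, where all genes had -0.04. For preIL4IFNG against CTR it was 0.41 (-0.29 to 2.67), where all genes had -0.02. The windows of Efna1, Efna3 and Efna4 overlap, as do those of Ephb2 and Epha8, so the 11 are not separate values. Ephb6 is included in these medians. The receptor gene Ephb6 had 0, 4, 10, 3 and 7 loops and reached the minimum of 10 through preIL4 alone, so its place past 1 against CTR in all 4 treated lists follows from the minimum and the added loop, and nothing is read from it. The ligand genes Efna1 (14 and 40 loops) and Efna4 (13 and 36), which are neighbours, and the receptor gene Epha10 (7 and 26) were past 1 in preIL4IFNG against CTR, which with Ephb6 made 4 of 11, against 3.1% of all genes. In the other 3 comparisons with CTR only Ephb6 was past 1, against 2.37% to 3.18% of all genes. None of the 11 was past -1 in these comparisons.

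Outside chromosome 4, the genes whose 4 scaled ratios to CTR lay closest to a member's, by root mean square difference among 10600 genes, were these. For Padi1 they were Stxbp5 (19, 20, 26, 7 and 16 loops, difference 0.08), Adcy9 (34, 37, 40, 15 and 29, difference 0.10) and Pik3ap1 (21, 24, 24, 9 and 19, difference 0.12). For Padi2 they were Adcy9 again (0.07), Chaf1a (0.07) and Ubxn6 (0.08), the last 2 being neighbours. For Padi3 they were Foxo3 (58, 63, 76, 32 and 54 loops, difference 0.03), Plin5 (0.07) and Sema6b (0.08), and for Padi4 Krt6b (0.04), Tnnc1 (0.04) and Capza2 (0.05). Plin5 and Sema6b lie beside Chaf1a and Ubxn6 on chromosome 17 with overlapping windows, so these matches of Padi2 and Padi3 are not separate. For Epha2 they were 2010003K11Rik (0.11), Zc3h12c (0.12) and Cd180 (25, 35, 24, 24 and 23 loops, difference 0.13).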

How the data were processed

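The data were Hi-C loop lists of 5 groups with 2 samples each. Per the methods and labels, the authors mapped MboI Hi-C reads to mm10 with HiC-Pro and Bowtie2, balanced Juicer contact maps by the Knight-Ruiz method and called loops with HICCUPS at 25 kb. The deposited lists have 10 kb bins, 1 whole-number contact count per bin pair and neither an expected count nor a false discovery rate, so which caller and threshold made them is not given in the sources used here. How the samples of a group were combined is not stated either. Sequencing depth cannot be read from the lists, whose contacts sum to 2174945 in CTR, 2416249 in IL4, 2787117 in preIL4, 2245331 in IFNG and 2757773 in preIL4IFNG.

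Here loops were counted near gene starts of GENCODE M21 (GRCm38), for all protein-coding genes (python 3.11.15, pandas 2.3.3). Ratios used counts plus 1, divided by list length, for genes with at least 10 loops in 1 list, and a log2 ratio of 1 was the fold. Contacts have exact Poisson intervals, ratios of contacts conditional binomial ones and shares exact binomial ones, at 95%. The counting code was tested on the CTR list, against a direct count and with loops near some genes removed at random. No test of groups was run, since each group has 1 list.

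The members, gene lists and rules were chosen with earlier results of these data known. Named were the 5 members, Padi6, the 14 neighbours by counts with those past the fold, per member and list the loop with most contacts at the TSS bin, the widest-ranging loops called in at least 4 lists, the 3 most similar genes off chromosome 4, and the extracellular trap and Eph lists by counts. The widest-ranging loop near Epha2 is not reported here. Alternatives covered windows, strength, adjacent bins, merging, scaling, pseudocount, gene starts and matching distance.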

Additional observations from a re-analysis of the deposited data

How the results depend on the processing

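No paired analysis was possible because the lists carry no replicate numbers (2 samples, 1 list a group), and for the same reason leaving out a replicate could not be run. The Padi cluster had its lowest number in IFNG under every window and filter tried, and Epha2 its highest in IL4 under all but merging. In the order CTR, IL4, preIL4, IFNG, preIL4IFNG, 25 kb windows gave 41, 45, 55, 18 and 37 loops near the Padi genes and 17, 24, 16, 11 and 10 near Epha2. Windows of 50 kb gave 43, 46, 57, 18 and 39, and 26, 38, 24, 17 and 20. Windows of 200 kb gave 107, 137, 124, 97 and 99 near Epha2. Loops at or above the median contacts of their span numbered 34, 40, 37, 25 and 31, and for Epha2 51 in IL4 and 39 in CTR. Merged patches numbered 21, 23, 24, 17 and 19, and 14, 9, 9, 13 and 9. The log2 ratio of IFNG to CTR over the Padi cluster ran from -1.25 (50 kb) to -0.33 (merged) and stayed below 0 in all 10 alternatives, while that of Epha2 in IL4 to CTR changed sign when merged (-0.71). Shares matched in CTR fell when the same bins were required: 55.9% for IL4, 50.6% for preIL4, 65.0% for IFNG and 57.4% for preIL4IFNG near the Padi genes, and 52.9%, 65.6%, 78.8% and 68.1% near Epha2. Within 50 kb the shares near Epha2 were 97.6% for IL4 and 100% for preIL4, IFNG and preIL4IFNG, and with only loops at or above the median contacts of their span 100% for IFNG and preIL4IFNG near the Padi genes and for preIL4 and IFNG near Epha2. Contact ratios did not leave their intervals. In preIL4IFNG against preIL4, Padi4 was at -1.10 with 25 kb windows and -0.41 with 100 kb. Padi1 was past -1 in IFNG against CTR in 6 of 10 alternatives and Padi2 in 7. Of 300 alternatives to the log2 ratios, 295 stayed within the interval of the main value, 5 moved beyond it and 0 gave the opposite sign to a value past the fold. Only Padi1 and Padi2 in IFNG against CTR had a main value past the fold, so the last count covers them alone. Smaller ratios did change sign, such as IL4 to CTR over the Padi cluster (-0.08, and 0.10 with the contact filter). The intervals are wide, as from -1.37 to -0.18 for IFNG to CTR over the cluster. The lists limit all of this: a count near the calling limit is either listed or missing, and what an uncalled pair held was not available to compare.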
